A study of Homo sapiens with 6 samples.

Results

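Cyclins, cyclin-dependent kinases (CDKs), CDK inhibitors and the proteins that switch CDKs on or off were followed in the human liver cancer line HepG2 after a hairpin against circFTO. The members were the 53 genes on a list of such symbols, and all 53 had 1 row each among the 60605 genes of the deposited table. Of these, 28 act in the cell cycle, 15 in transcription by RNA polymerase II, and 10 are cyclins or CDKs with other or less settled roles. The 3 sh-circFTO libraries came from cells infected with a lentivirus carrying a hairpin against circFTO, a circular RNA of the FTO gene, and the 3 sh-control libraries from cells infected with a lentivirus carrying a control hairpin. Both groups carry the genotype label WT and grew in DMEM with fetal bovine serum, and no sample label names serine or glycine withdrawal. The labels call the cells epithelial in one place and mesenchymal in another. RNA was read in bulk from 1 cell line, and nothing in the labels tells whether libraries of a group were separate cultures, so a p-value here measures only the spread among libraries, which may be technical.

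Cyclins are named for proteins that come and go through the division cycle, and each activates a CDK that has little activity without it. Cyclin D with CDK4 or CDK6 and cyclin E with CDK2 phosphorylate the retinoblastoma protein and its relatives, which releases E2F transcription factors and the genes of DNA synthesis. Cyclin A and cyclin B with CDK1 then drive the passage into mitosis. Another branch of the family does not time division: CDK7, CDK8, CDK9, CDK12 and CDK13 with their cyclins phosphorylate RNA polymerase II and its regulators, and CDK11 with the L cyclins acts in splicing and transcription.

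The table has no value for the circular RNA, and the whole FTO gene was at 55.5, 56.5 and 59.3 CPM in sh-circFTO and 59.4, 57.0 and 55.7 CPM in sh-control with overlapping groups, so the knockdown could not be checked. Depth was 13361333 to 15809084 counts in the sh-circFTO libraries and 14932270 to 16178079 counts in the sh-control libraries. The hepatic label was checked on 12 markers, of which all were expressed: ALB, the plasma protein albumin, was at 4358 ± 55.5 CPM in sh-circFTO and 5027 ± 148 CPM in sh-control, and AFP, a fetal liver protein that HepG2 cells secrete, was at 2004 ± 4.72 and 2379 ± 37.9 CPM in the same order (mean ± SD, n = 3 libraries each). CPM are counts scaled to a common library total after TMM normalisation. Of these 12, 9 fell and 3 rose (7 and 3 with library size only), which is 100% called beside 69.7% of all genes tested. Log2 fold changes were -0.206 for ALB and -0.247 for AFP, but -1.585 for APOB, -1.37 for TTR and -1.17 for HNF4A in edgeR. TTR was low in both groups, at 6.11 CPM in sh-circFTO and 15.7 CPM in sh-control. FGB, KRT8 and KRT18 rose, by 0.722, 0.196 and 0.105. The list summed to between 18140 and 18320 CPM over the sh-circFTO libraries, against 28120 to 28480 CPM over the sh-control libraries. APOB alone, at 2528 CPM in sh-circFTO and 7586 CPM in sh-control, made up a large part of that difference. Of markers of other cell types, 6 macrophage and blood markers summed to 1.57 to 1.80 CPM in sh-circFTO and 0.637 to 1.05 CPM in sh-control, with PTPRC, CD163 and HBB at 0. The 6 fibroblast and stellate markers summed to 2.95 to 5.41 CPM in sh-circFTO and 4.25 to 5.87 CPM in sh-control, with LUM at 0. The 6 endothelial markers summed to 63.0 to 65.9 CPM in sh-circFTO and 10.2 to 14.7 CPM in sh-control, with KDR at 0. TIE1 alone made up most of the sh-circFTO sum. VWF, CDH5 and CLDN5 were close to absent, with 30, 2 and 3 counts over sh-circFTO and 18, 4 and 12 over sh-control. Of these 6 endothelial markers, 2 were tested and both rose, TIE1 to 51.5 CPM in sh-circFTO, against 4.03 CPM in sh-control (log2 fold change 3.67, adjusted p = 8.43e-23), and PECAM1 by 0.67 (adjusted p = 0.000447, both edgeR). TIE1 reached FPKM 1 in the 3 sh-circFTO libraries only, and PECAM1 in those and 1 sh-control library. Both thus passed the filter through the group where they were higher, so that both rose was favoured in advance. Mitochondrial genes took 6.47% to 6.75% of counts in sh-circFTO and 7.72% to 8.11% in sh-control. The part of these shifts in the results was not tested.

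Of the 53 members, 48 reached the authors' FPKM, their count scaled to exon length and library total, of 1 or more in 3 or more libraries and were tested. Of these 48, 46 had that level in all 6 libraries. CCNE2 and CDKN2B had it in all 3 sh-circFTO libraries and in 2 of the sh-control libraries. In edgeR's quasi-likelihood fit, at a Benjamini-Hochberg adjusted p under 0.05 over all genes, 15 members rose and 23 fell in sh-circFTO. That is 79.2% of those tested, beside 69.7% of all 12865 genes tested, so the share of members called was not far above that of any gene in this comparison. By direction the background was 34.9% higher and 34.8% lower. At least 2-fold calls numbered 5 higher and 8 lower among the members, beside 7.07% and 7.62% of all genes. The libraries of the 2 groups did not overlap for 16 members higher and 23 lower, beside 71.5% of all genes, 35.8% higher and 35.7% lower. The median log2 fold change was -0.10 over the 48 members, and 0.00 over all genes tested. Directions are therefore set against the median gene. When libraries were scaled by their totals alone, the median over all genes moved by 0.145 on the log2 scale, and 62.2% of all calls were higher, against 50.1% with TMM.

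The cell cycle and transcription branches differed in how far their members lay from 0. The 26 tested cell cycle members ran from -2.12 to 2.02 on the log2 scale, with 16 lower, 5 higher and a median of -0.425, and 12 of the 21 calls were at least 2-fold. The 15 tested transcription members ran from -0.60 to 0.71, with 7 higher, 4 lower and a median of 0.12, and no call was 2-fold. That is 80.8% of the cell cycle members and 73.3% of the transcription members called, beside 69.7% of all genes tested. Over all genes 7.07% were at least 2-fold higher calls and 7.62% lower, so few would be expected among 15 genes. With library size only, the transcription members split into 8 higher and 2 lower, and the cell cycle members into 6 higher and 14 lower.

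**Figure D1:**
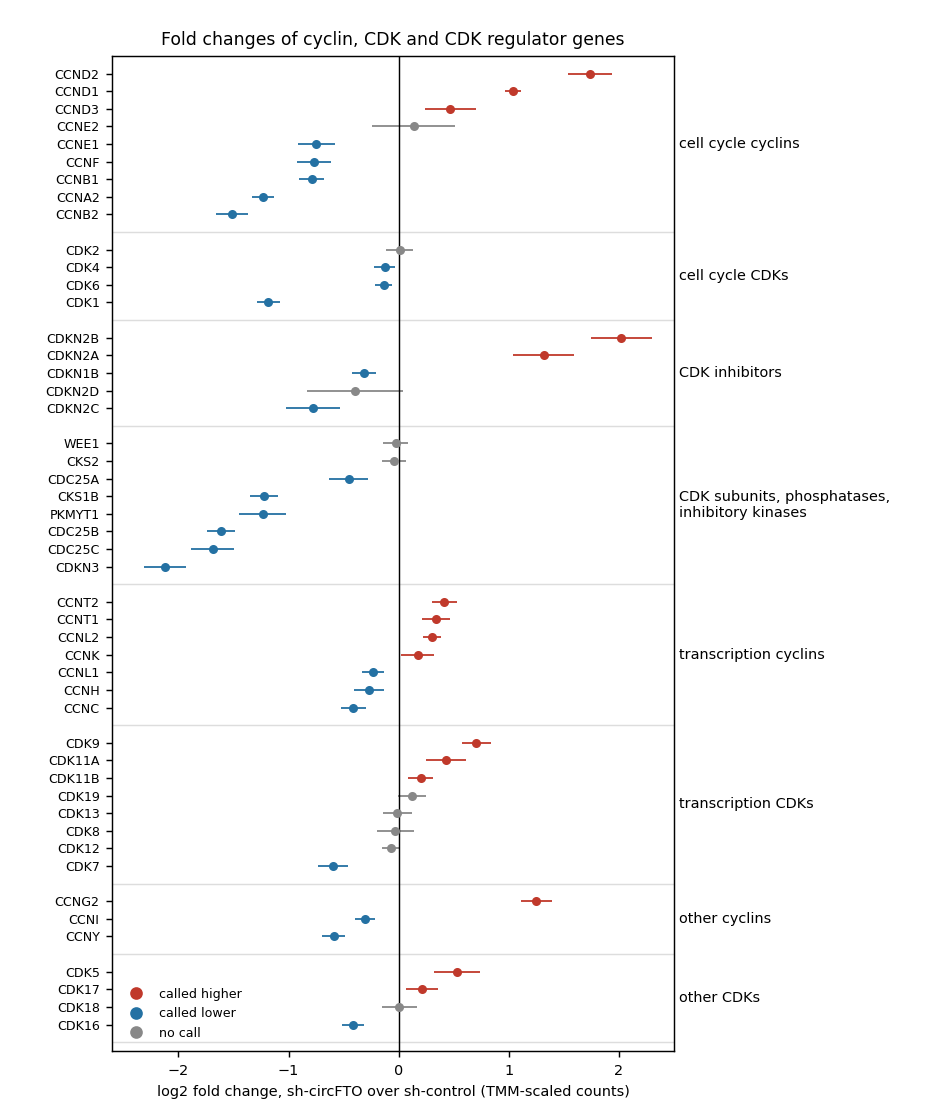
Log2 fold change of each of the 48 tested members (sh-circFTO over sh-control, TMM-scaled counts), grouped by role; points are edgeR estimates, bars are 95% intervals from their standard errors, and colour gives the call. The D cyclins, CDKN2A, CDKN2B and CCNG2 lie at the right, the mitotic cyclins, CDK1, the CDC25 genes and CDKN3 at the left, and the transcription CDKs within 0.71 of 0.

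The D cyclins, which respond to growth signals and start the cycle, rose together, and they were the only cyclins of the cell cycle group to rise. CCND1 stood at 729, 737 and 728 CPM in the sh-circFTO libraries and at 364, 351 and 355 CPM in the sh-control libraries. All sh-circFTO libraries lay far above all sh-control libraries, and 10.3% of the exonic bases of the gene lie opposite LTO1. CCND2 stood at 35.6, 31.0 and 34.2 CPM in sh-circFTO and at 8.59, 11.0 and 10.5 CPM in sh-control. It had the largest rise of the 3 genes, 3.34-fold, but its row starts 4001 bases upstream of the gene in GENCODE release 29, and 13.8% of its exonic bases are shared on the same strand with AC008012.1. CCND3 stood at 13.9, 17.2 and 14.3 CPM in sh-circFTO and at 11.3, 11.3 and 10.2 CPM in sh-control, with groups that did not overlap but lay close. The log2 fold changes were 1.04 for CCND1 (SE 0.0368, adjusted p = 2.38e-20), 1.74 for CCND2 (SE 0.103, adjusted p = 4.36e-15) and 0.47 for CCND3 (SE 0.120, adjusted p = 0.000948) in edgeR. On the per-length scale CCND1 remained nearly the whole of the D cyclin pool: it made up 95.7% ± 0.0256 of the summed FPKM of the 3 genes in sh-circFTO and 95.9% ± 0.270 in sh-control (SD, n = 3 each). The share of CCND2 was 2.62% ± 0.197 in sh-circFTO and 1.61% ± 0.230 in sh-control, and that of CCND3 was 1.64% ± 0.183 and 2.43% ± 0.145 in the same order. Both minor shares gave a two-sided exact p of 0.1 by permutation, below which 3 libraries against 3 cannot go.

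The partner kinases of the D cyclins did not follow them. CDK4 stood at 95.4, 93.3 and 99.1 CPM in sh-circFTO and at 106, 103 and 107 CPM in sh-control, and CDK6 at 267, 258 and 253 CPM in sh-circFTO and at 293, 282 and 279 CPM in sh-control. The groups did not overlap, but the gaps were small: log2 fold changes were -0.13 for CDK4 (SE 0.0496, adjusted p = 0.0238) and -0.14 for CDK6 (SE 0.0403, adjusted p = 0.00391) in edgeR. Both signs turned with library size only, to 0.02 and 0.01, and neither was called there, so no direction is given for this pair. Of the exonic bases of CDK4, 43.2% lie opposite exons of TSPAN31, and the use of strand in counting is not given in the sources used here. By edgeR the call of CDK4 was also lost without any 1 sh-circFTO library (adjusted p from 0.0555 to 0.225), and that of CDK6 without sh-circFTO replicate 2 or 3 (adjusted p = 0.0627 and 0.0899). The ratio of CDK4 to CDK6 in FPKM, which scaling cannot move, was 1.47 ± 0.0731 in sh-circFTO and 1.46 ± 0.0465 in sh-control (two-sided exact permutation p = 0.9, n = 3 each).

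The E cyclins act next, with CDK2, at the entry to DNA synthesis. CCNE1 stood at 21.1, 20.5 and 19.6 CPM in sh-circFTO and at 31.1, 35.5 and 36.0 CPM in sh-control, so all 3 sh-circFTO libraries were lower (log2 fold change -0.75, SE 0.0858, adjusted p = 7.83e-09, edgeR). CCNE2 was low, at 5.25 ± 1.04 CPM in sh-circFTO and 4.79 ± 0.746 CPM in sh-control (SD, n = 3 each), and its groups overlapped. Its log2 fold change of 0.14 had a 95% interval of -0.24 to 0.52, and 37.1% of its exonic bases lie opposite other genes, among them INTS8. CDK2 stood at 50.9, 51.3 and 50.2 CPM in sh-circFTO and at 51.3, 51.8 and 48.1 CPM in sh-control. Its groups overlapped, and the 95% interval of its log2 fold change was -0.11 to 0.14. With library size only it was called higher, by 0.16 (adjusted p = 0.0276, edgeR).

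Cyclins A and B and their kinase CDK1, which carry cells through late replication into mitosis, fell. CCNA2 stood at 58.8, 57.8 and 60.9 CPM in sh-circFTO and at 139.8, 141 and 137 CPM in sh-control. CCNB2 stood at 34.5, 30.8 and 29.3 CPM in sh-circFTO and at 78.4, 94.4 and 96.6 CPM in sh-control. CDK1 stood at 79.6, 72.4 and 76.6 CPM in sh-circFTO and at 178, 161 and 179 CPM in sh-control. For these 3 genes no sh-circFTO library came near the lowest sh-control library. Log2 fold changes were -1.24 for CCNA2 (SE 0.0506, adjusted p = 7.20e-19), -1.51 for CCNB2 (SE 0.0752, adjusted p = 7.51e-17) and -1.18 for CDK1 (SE 0.0522, adjusted p = 4.35e-18) in edgeR. CCNB1, the other main mitotic cyclin, was at 94.7 ± 1.73 CPM in sh-circFTO and 164 ± 16.7 CPM in sh-control, a smaller fall (log2 fold change -0.79, SE 0.0563, adjusted p = 3.16e-13, edgeR). In FPKM the ratio of CCNB1 to CCNB2 was 3.42 ± 0.342 in sh-circFTO and 2.08 ± 0.330 in sh-control, and that of CDK1 to CDK2 was 1.48 ± 0.0783 in sh-circFTO and 3.40 ± 0.311 in sh-control (SD, n = 3 each). CCNF, a cyclin that works as a ubiquitin ligase subunit and is not known to activate a CDK, fell by 0.77 on the log2 scale (SE 0.0790, adjusted p = 8.09e-10, edgeR). CCNA1, the germ line A cyclin, was close to absent, with 5 counts over the sh-circFTO libraries and 1 over the sh-control libraries. In bulk RNA, fewer dividing cells and less of these transcripts per dividing cell cannot be told apart.

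**Figure D2:**
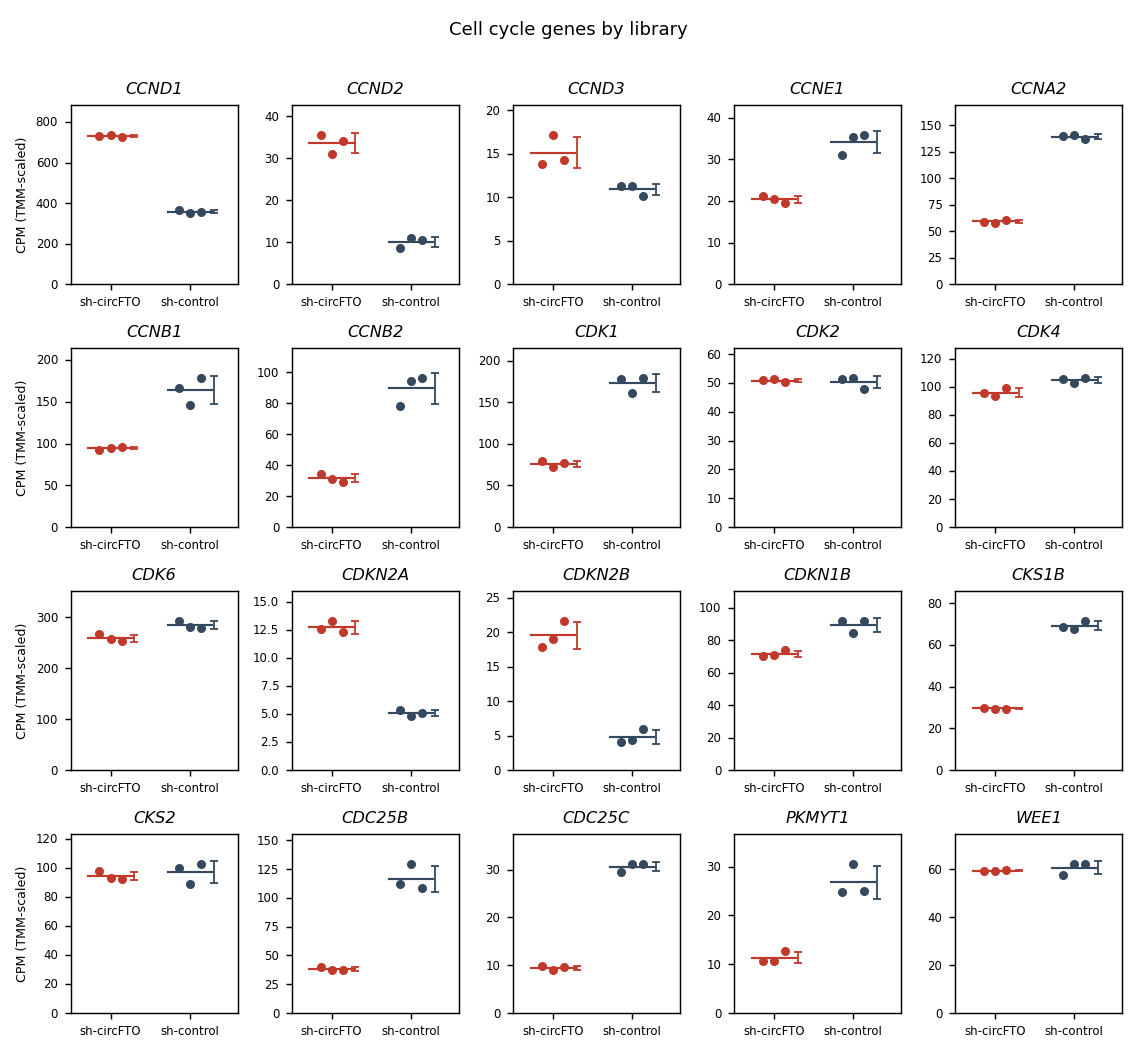
Level of 20 cell cycle members in each library (CPM, TMM-scaled, linear axes from 0); points are libraries, horizontal lines group means and bars SD, with sh-circFTO left of sh-control in each panel. CCND1, CCND2, CDKN2A and CDKN2B are higher in all sh-circFTO libraries, CCNA2, CCNB2 and CDK1 are lower in all of them, and CDK2, CKS2 and WEE1 overlap.

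Set side by side per length, on FPKM scaled to library totals, the D cyclins were the larger sum in sh-circFTO and the A and B cyclins the larger one in sh-control. The summed FPKM of CCND1, CCND2 and CCND3 was 168, 170.1 and 168 in the sh-circFTO libraries and 75.9, 73.3 and 73.5 in the sh-control libraries. The sum of CCNA2, CCNB1 and CCNB2 was 75.7, 74.9 and 76.1 in the sh-circFTO libraries and 141, 139 and 149.8 in the sh-control libraries. CCNE1 and CCNE2 together were a small part, at 9.97 ± 0.395 FPKM in sh-circFTO and 14.2 ± 1.14 FPKM in sh-control (SD, n = 3 each). The D to A and B ratio was 2.23 ± 0.0325 in sh-circFTO and 0.519 ± 0.0248 in sh-control, 4.30 times as high, with a two-sided exact permutation p of 0.1. That was 1 of 14 such shares, sums and ratios compared, and its adjusted p was 0.117, the value of the 12 among them with the smallest p the design allows. The order of the members by FPKM moved with it. CKS2 and CCND1 led in sh-circFTO, at 161 and 161.5 FPKM with overlapping libraries, and in sh-control CKS2 led alone at 149.5 FPKM, followed without overlap by CCND1 at 71.2 FPKM and CCNB1 at 64.0 FPKM.

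**Figure D3:**
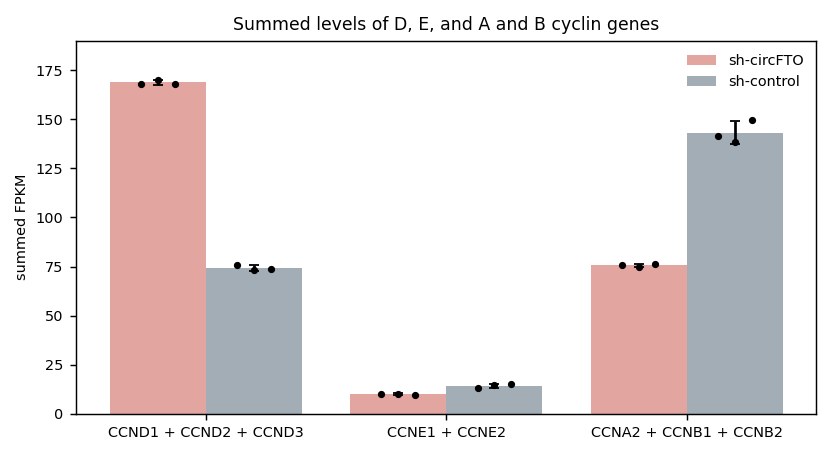
Summed FPKM of the D, the E, and the A and B cyclin genes; bars are group means, error bars SD and points the 3 libraries of each group, sh-circFTO left of sh-control. The D cyclin sum averaged 169 FPKM in sh-circFTO and 74.2 FPKM in sh-control, and the A and B sum 75.6 FPKM in sh-circFTO and 143 FPKM in sh-control.

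Among the CDK inhibitors the INK4 genes, whose proteins block CDK4 and CDK6, split. CDKN2B, which encodes INK4B, stood at 17.9, 19.0 and 21.7 CPM in sh-circFTO and at 4.12, 4.35 and 6.02 CPM in sh-control. CDKN2A, which encodes INK4A and, from another first exon, the p53 activator ARF, stood at 12.5, 13.3 and 12.3 CPM in sh-circFTO and at 5.38, 4.81 and 5.10 CPM in sh-control. Both groups of libraries were far apart for each gene, and CDKN2B had the largest rise of all members, 4.06-fold. The log2 fold changes were 2.02 for CDKN2B (SE 0.142, adjusted p = 2.15e-13) and 1.32 for CDKN2A (SE 0.142, adjusted p = 1.98e-09) in edgeR. The counts of CDKN2A do not separate INK4A from ARF. The 2 genes are neighbours on the minus strand of chromosome 9 on GRCh38, CDKN2A (ENSG00000147889) from 21967752 to 21995301 and CDKN2B (ENSG00000147883) from 22002903 to 22009305, and 7.88% of the exonic bases of CDKN2A lie opposite the antisense RNA gene CDKN2B-AS1. CDKN2C, for INK4C, fell to 8.06 ± 0.525 CPM in sh-circFTO, against 13.9 ± 0.300 CPM in sh-control (log2 fold change -0.78, SE 0.125, adjusted p = 2.61e-06, edgeR, n = 3 each). CDKN2D, for INK4D, had overlapping groups and a 95% interval of -0.83 to 0.04. It was called lower without sh-control replicate 1, at -0.56 (adjusted p = 0.0389, edgeR).

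Of the CIP/KIP inhibitors, which bind CDK complexes of several kinds, CDKN1B, for p27, stood at 70.2, 70.9 and 73.7 CPM in sh-circFTO and at 91.6, 84.3 and 91.9 CPM in sh-control, lower in all sh-circFTO libraries (log2 fold change -0.32, SE 0.0548, adjusted p = 8.45e-06, edgeR). Its row spans more than the gene in GENCODE release 29: it starts 29560 bases upstream and has 9255 exonic bases, against 2811 there, so its counts may include other transcripts. CDKN1C, for p57, had 0 counts over sh-circFTO and 1 over sh-control. Outside the members, CDKN1A, for p21, was at 412 ± 13.5 CPM in sh-circFTO and 124 ± 4.80 CPM in sh-control, a log2 fold change of 1.73 (adjusted p = 7.42e-24, edgeR, n = 3 each).

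The proteins that switch CDK1 and CDK2 moved unevenly. CDC25B stood at 40.0, 37.4 and 37.2 CPM in sh-circFTO and at 112, 129.7 and 109 CPM in sh-control, and CDC25C at 9.76, 9.02 and 9.70 CPM in sh-circFTO and at 29.5, 31.1 and 31.2 CPM in sh-control. Both encode phosphatases that remove the inhibitory phosphates from CDK1, and every sh-circFTO library held well under the lowest sh-control library. Their log2 fold changes were -1.61 (SE 0.0655, adjusted p = 6.09e-19) and -1.69 (SE 0.0977, adjusted p = 2.59e-15) in edgeR. CDC25A, which acts earlier, on CDK2, fell less, by 0.45 (SE 0.0914, adjusted p = 6.70e-05, edgeR). The kinases that add those phosphates differed. PKMYT1, the membrane-bound one, stood at 10.8, 10.7 and 12.7 CPM in sh-circFTO and at 24.8, 30.6 and 24.9 CPM in sh-control (log2 fold change -1.24, SE 0.108, adjusted p = 2.95e-11, edgeR). WEE1, the nuclear one, was at 59.5 ± 0.325 CPM in sh-circFTO and 60.7 ± 2.75 CPM in sh-control with overlapping groups, and its 95% interval was -0.14 to 0.09. Of the exonic bases of PKMYT1, 31.6% lie opposite other genes, KREMEN2 and PAQR4.

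CDKN3, a phosphatase that removes the activating phosphate from CDKs, had the largest fall of all members, 4.35-fold. It stood at 13.4, 11.4 and 9.31 CPM in sh-circFTO and at 46.2, 52.2 and 49.6 CPM in sh-control (log2 fold change -2.12, SE 0.0990, adjusted p = 1.69e-17, edgeR). The CKS proteins are small subunits that help CDKs bind their substrates, and the pair came apart. CKS1B, whose protein also serves the ligase that degrades p27, stood at 30.0, 29.3 and 29.4 CPM in sh-circFTO and at 68.4, 67.4 and 71.6 CPM in sh-control (log2 fold change -1.23, SE 0.0648, adjusted p = 3.26e-16, edgeR). CKS2 stood at 97.6, 93.1 and 92.0 CPM in sh-circFTO and at 99.5, 88.4 and 103 CPM in sh-control. Its groups overlapped, and the 95% interval of its log2 fold change was -0.15 to 0.07.

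Promoter sequences are shown for 4 of these genes because mitotic genes are known to share a short element, the cell cycle genes homology region (CHR), often near CCAAT boxes bound by NF-Y. Another reason was that CKS1B and CKS2 both hold matches to these elements, with the CHR on opposite strands, but moved differently. The letters searched on both strands were TTTGAA for the CHR and CCAAT for the box. Capitals mark matches to either, ATTGG and TTCAAA being the other strand. All 4 genes lie on the plus strand, the last base is the one before the RefSeq start, and coordinates are on GRCh38.p14: chr15:59104996-59105145 for CCNB2, chr1:154974531-154974680 for CKS1B, chr9:89311045-89311194 for CKS2 and chr10:60778161-60778330 for CDK1.
CCNB2: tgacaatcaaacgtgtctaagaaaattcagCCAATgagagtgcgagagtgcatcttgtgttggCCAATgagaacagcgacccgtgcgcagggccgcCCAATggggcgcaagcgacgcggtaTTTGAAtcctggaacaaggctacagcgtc
CKS1B: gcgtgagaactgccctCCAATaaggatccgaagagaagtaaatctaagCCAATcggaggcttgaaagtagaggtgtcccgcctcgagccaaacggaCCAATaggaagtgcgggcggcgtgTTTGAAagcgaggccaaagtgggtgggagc
CKS2: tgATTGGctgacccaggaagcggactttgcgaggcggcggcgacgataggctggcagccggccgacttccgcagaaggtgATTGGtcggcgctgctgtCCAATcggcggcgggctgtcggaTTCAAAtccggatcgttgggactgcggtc
CDK1: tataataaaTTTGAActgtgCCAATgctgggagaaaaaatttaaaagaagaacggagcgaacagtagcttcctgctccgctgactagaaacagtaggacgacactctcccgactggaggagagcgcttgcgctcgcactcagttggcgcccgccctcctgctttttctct

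In CCNB2, CKS1B and CKS2 the CHR letters begin 29, 30 and 29 bases before the start and a CCAAT match lies 52 to 54 bases before it. The genes are alike in these distances but not in strand. In CKS2 the CHR letters are on the other strand, as are its further CCAAT matches, at 70 and 148 bases before the start. In CCNB2 and CKS1B all matches shown are on the given strand. CCNB2 and CKS1B fell, and CKS2 was not called. CDKN3, which had the largest fall of all members, also has its CHR letters on the other strand, 170 bases before the start. CCNA2 fell as well, with a CCAAT match on the other strand 56 bases before the start. Whether strand has a part in these changes was not tested. In CDK1 the CHR letters begin 161 bases before the start. RefSeq promoter windows, 250 bases before to 50 after the start, were matched by symbol for 46 members. None was found for the cell cycle members CCND1, CCND2, CCNE2, CDK2, CDKN1C, WEE1 and PKMYT1. Of the 21 cell cycle windows, 15 were of members called lower, so shares among them do not stand for the whole group. CHR letters were present in 6 of 21 windows of cell cycle members (28.6%), in 2 of 15 of transcription members (13.3%) and in 0 of 10 of the other members, beside 15.4% of all 27305 windows and 9.44% of the 9122 windows of genes tested. CCAAT was present in 11, 7 and 2 of those windows, beside 35.7% of all windows and 37.2% of those of genes tested. For E2F, 4 spellings were searched, TTCCCGC or TTCGCGC, with C after the leading T pair, and TTGCCGC or TTGGCGC, with G there, and any of them stood in 5, 3 and 1 of them, beside 13.1% and 21.2%. For the E-box, CACGTG was found in 4, 3 and 1, beside 7.43% and 10.4%. CHR letters within 50 bases of the start together with CCAAT at 50 to 100 bases before it, distances chosen after the matches were seen, were found in 3 of the 46 members, in 0.315% of all windows and in 0.428% of those of genes tested. These are matches of letters, and binding was not measured. Sequence outside the windows was not searched, so known elements that lie there would be missed, and a match need not be the known element of a gene.

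**Figure D4:**
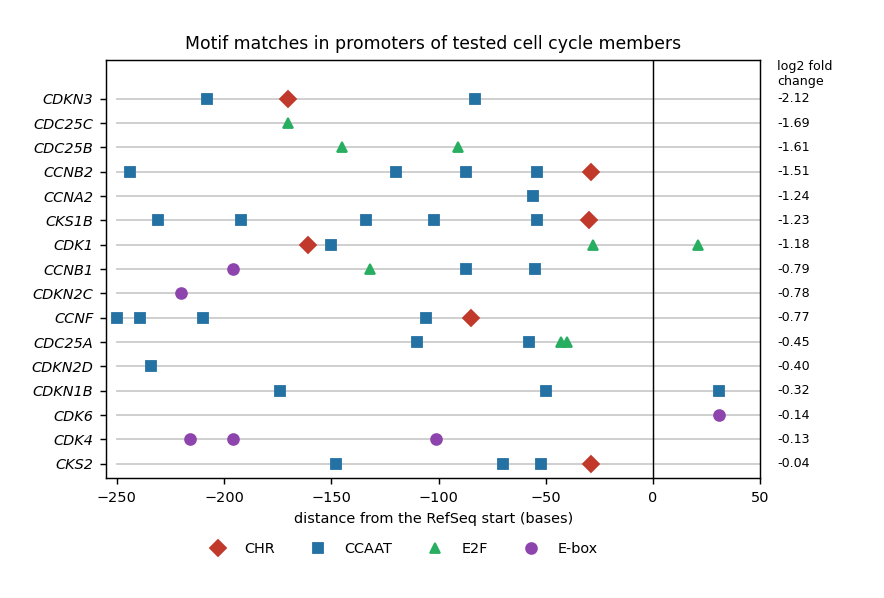
Positions of CHR, CCAAT, E2F and E-box letters, by distance in bases from the RefSeq start, in the 16 tested cell cycle members with a match, ordered by log2 fold change (right). CCNB2, CKS1B and CKS2 have a CHR match at 29 or 30 bases before the start, in CKS2 on the other strand, with CCAAT next to it. Their log2 fold changes are -1.51, -1.23 and -0.04. CDKN3, at -2.12, also has its CHR match on the other strand.

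In the transcription branch the subunits of P-TEFb, the complex of CDK9 with cyclin T1 or T2 that releases paused RNA polymerase II, rose together. CDK9 stood at 54.9, 56.6 and 54.3 CPM in sh-circFTO and at 32.8, 33.8 and 35.3 CPM in sh-control, so each sh-circFTO library was well above each sh-control library. It had the largest change of the 15 transcription members (log2 fold change 0.71, SE 0.0666, adjusted p = 1.51e-10, edgeR). CCNT2 stood at 93.4, 93.5 and 83.2 CPM in sh-circFTO and at 67.5, 67.4 and 67.4 CPM in sh-control, and CCNT1 at 69.5, 66.5 and 66.3 CPM in sh-circFTO and at 56.2, 47.9 and 56.1 CPM in sh-control. Their log2 fold changes were 0.42 (SE 0.0566, adjusted p = 1.71e-07) and 0.34 (SE 0.0644, adjusted p = 3.22e-05) in edgeR. The ratio of both T cyclins to CDK9 in FPKM was 1.04 ± 0.0382 in sh-circFTO and 1.30 ± 0.0734 in sh-control (SD, two-sided exact permutation p = 0.1, n = 3 each).

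CDK7 and cyclin H went the other way. They form the CDK-activating kinase, which phosphorylates cell cycle CDKs and, within TFIIH, the polymerase. CDK7 stood at 36.0, 35.1 and 38.5 CPM in sh-circFTO and at 57.3, 50.4 and 58.1 CPM in sh-control (log2 fold change -0.60, SE 0.0708, adjusted p = 1.39e-08, edgeR). CCNH stood at 40.0, 40.9 and 37.3 CPM in sh-circFTO and at 47.1, 48.3 and 47.0 CPM in sh-control (log2 fold change -0.27, SE 0.0673, adjusted p = 0.000802, edgeR). The groups of both genes were separate, but the call of CCNH was lost with library size only (-0.12, adjusted p = 0.0997, edgeR), and 22.3% of its exonic bases lie opposite other genes, RASA1 among them. In FPKM the ratio of CCNH to CDK7 was 0.437 ± 0.0408 in sh-circFTO and 0.3485 ± 0.0334 in sh-control (SD, n = 3 each). The third subunit, MNAT1, is outside the members and was not called (0.12, SE 0.0767, adjusted p = 0.181, edgeR).

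The Mediator kinase module pairs cyclin C with CDK8 or CDK19. CCNC stood at 72.9, 73.6 and 67.3 CPM in sh-circFTO and at 90.9, 91.7 and 102 CPM in sh-control (log2 fold change -0.41, SE 0.0575, adjusted p = 2.62e-07, edgeR). CDK8 had overlapping groups, with a 95% interval of -0.19 to 0.14. CDK19 was at 48.8 ± 2.14 CPM in sh-circFTO and 44.8 ± 0.814 CPM in sh-control, with groups that did not overlap and an adjusted p of 0.0954 (edgeR, n = 3 each). It was called higher with library size only (0.27, adjusted p = 0.000614) and without sh-circFTO replicate 1 (0.18, adjusted p = 0.0343) in edgeR. In FPKM, cyclin C stood to both kinases as 0.879 ± 0.0980 in sh-circFTO and as 1.19 ± 0.0964 in sh-control (SD, n = 3 each).

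**Figure D5:**
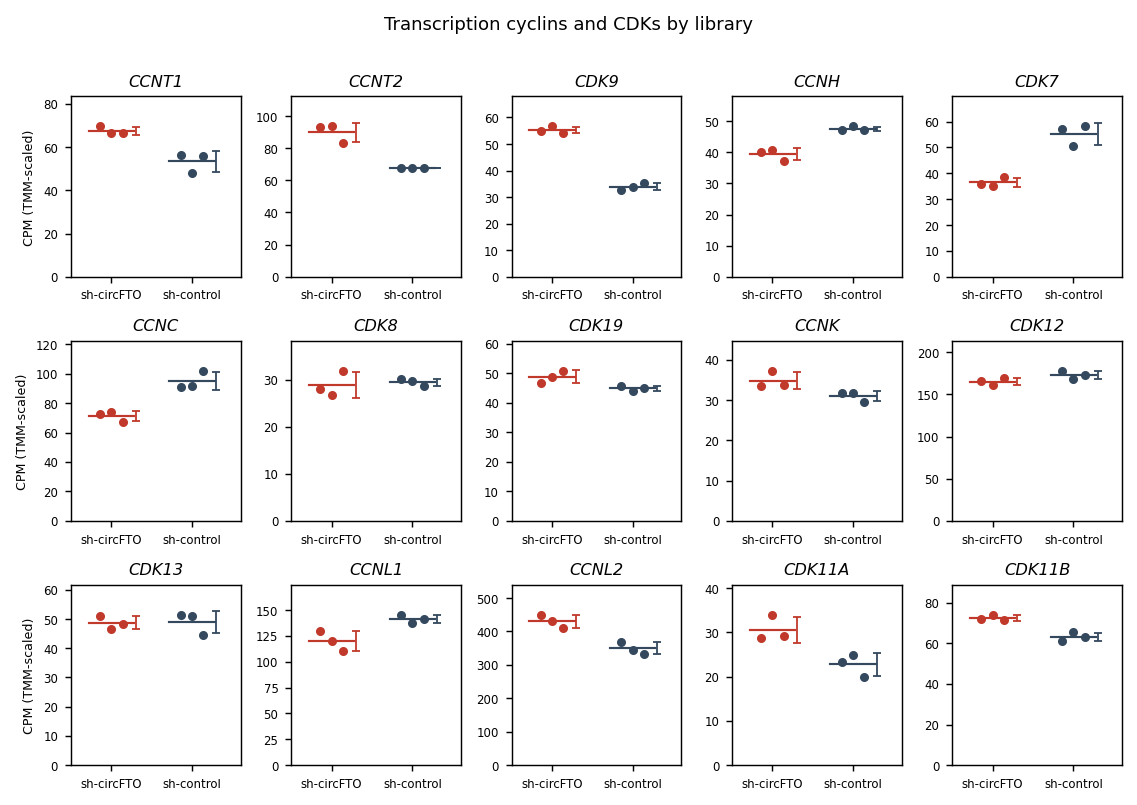
Level of the 15 transcription members in each library (CPM, TMM-scaled, linear axes from 0); points are libraries, horizontal lines group means and bars SD, with sh-circFTO left of sh-control in each panel. CDK9, CCNT1, CCNT2 and CCNL2 are higher in all sh-circFTO libraries, CDK7, CCNH, CCNC and CCNL1 are lower in all of them, and CDK8, CDK12 and CDK13 overlap.

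CDK12 and CDK13, kinases of elongating polymerase that share cyclin K, were not called, with 95% intervals of -0.15 to 0.02 and of -0.15 to 0.12. CDK12 was called lower without sh-control replicate 2 (-0.10, adjusted p = 0.0450, edgeR), and both signs turned with library size only, to 0.08 and 0.13. CCNK was at the threshold (log2 fold change 0.17, SE 0.0775, adjusted p = 0.0497, edgeR). That call was lost in DESeq2 (adjusted p = 0.0854) and when any of sh-circFTO replicate 2 or the 3 sh-control replicates was left out (adjusted p from 0.0692 to 0.171), and 59.5% of its exonic bases lie opposite CCDC85C. The L cyclins, which associate with CDK11 and splicing factors, split: CCNL2 was at 431 ± 19.3 CPM in sh-circFTO and 349 ± 18.0 CPM in sh-control (0.30, SE 0.0428, adjusted p = 3.22e-07, edgeR, n = 3 each), while CCNL1 was at 120.3 ± 9.73 CPM in sh-circFTO and 141 ± 4.14 CPM in sh-control (-0.23, SE 0.0518, adjusted p = 0.000216, edgeR, n = 3 each). The call of CCNL1 was lost with library size only (adjusted p = 0.129, edgeR). CDK11A and CDK11B rose by 0.43 and 0.20 (adjusted p = 0.000178 and 0.00251, edgeR), but they are near-identical neighbours on chromosome 1, 52.1% of the exonic bases of CDK11A are shared on the same strand with AL031282.2, and how their reads were divided is uncertain. In FPKM the ratio of CCNK to its 2 kinases was 0.273 ± 0.0236 in sh-circFTO and 0.2325 ± 0.00854 in sh-control (SD, n = 3 each).

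Among the cyclins with other roles, CCNG2, an atypical cyclin linked to arrest of the cycle, rose 2.38-fold. It stood at 71.9, 66.7 and 67.2 CPM in sh-circFTO and at 27.9, 26.2 and 32.4 CPM in sh-control, far apart (log2 fold change 1.25, SE 0.0730, adjusted p = 3.16e-15, edgeR). CCNY, a membrane-bound cyclin that activates CDK14 and CDK16, fell by 0.59 (adjusted p = 2.99e-11), and CCNI fell by 0.31 (adjusted p = 1.77e-06) in edgeR. CDK16, the partner of CCNY, fell too, by 0.41 (adjusted p = 2.72e-08, edgeR), whereas CDK14 held only 18 counts over sh-circFTO and 13 over sh-control. CDK5, best known from neurons, stood at 17.9, 16.3 and 16.6 CPM in sh-circFTO and at 11.7, 11.7 and 11.8 CPM in sh-control (log2 fold change 0.53, SE 0.109, adjusted p = 8.44e-05, edgeR). CDK17 rose by 0.21 (adjusted p = 0.0133, edgeR), a call lost without sh-control replicate 2 (adjusted p = 0.0731). CDK18 had overlapping groups and a 95% interval of -0.16 to 0.17. CDK10 was under the filter, at 0.797 FPKM in both groups, and CDK20 had 0 counts in all 6 libraries.

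Genes around the members were taken from lists. Of 19 genes of the retinoblastoma, E2F and DREAM machinery, which links cyclin D and E activity to gene expression, 14 fell and 2 rose, which is 84.2% called beside 69.7% of all genes tested, with a median of -0.34 beside 0.00 (11 fell and 2 rose with library size only). MYBL2, an activator of mitotic genes, was at 25.8 ± 1.55 CPM in sh-circFTO and 144.5 ± 2.98 CPM in sh-control (log2 fold change -2.49, adjusted p = 2.46e-24), and E2F1 was at 21.3 ± 3.27 and 59.3 ± 1.94 CPM in the same order (-1.47, adjusted p = 1.49e-15, both edgeR, n = 3 each). FOXM1, which activates mitotic cyclins, and RBL1, a retinoblastoma relative, changed by -1.14 and -0.76 (adjusted p = 2.34e-15 and 1.13e-10, edgeR). Of 16 genes of cyclin and inhibitor turnover, 5 rose and 5 fell, with a median of 0.07 (8 and 4 with library size only). That is 62.5% called, below the 69.7% of all genes tested. FBXW7, the ligase subunit for cyclin E, rose by 0.96, while CDC20, which directs the destruction of cyclin B, FBXO5, which restrains that step, and FBXO31, a ligase subunit for cyclin D1, changed by -1.16, -0.91 and -0.60 (adjusted p from 3.24e-18 to 7.16e-11, edgeR).

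Of 20 partners of the transcription CDKs, 8 rose and 4 fell, with a median of 0.08 (11 and 3 with library size only). The 60% called here also lay below the 69.7% of all genes tested. HEXIM1, which holds P-TEFb inactive, was at 130.1 ± 3.53 CPM in sh-circFTO and 76.2 ± 2.20 CPM in sh-control, a log2 fold change of 0.77 (adjusted p = 3.36e-14, edgeR, n = 3 each). ELL2, an elongation factor that works with P-TEFb, changed by -1.21, and MED12, which activates the CDK8 module, by 0.58 (adjusted p = 1.39e-18 and 4.83e-09, edgeR). MED13L and MED13, other subunits of that module, went the other way, by -0.42 and -0.19 (adjusted p = 1.2e-07 and 0.00392, edgeR). Of 22 other cyclin, CDK and activator genes, 16 were tested, 8 rose and 5 fell, 81.25% of those tested, with a median of 0.15 (9 and 5 with library size only). Besides CDKN1A these included CABLES1, which links CDKs to other kinases, at -1.08, and CCNJ at 0.44 (adjusted p = 3.39e-15 and 4.28e-08, edgeR).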

How the data were processed

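Bulk RNA-seq of 6 HepG2 libraries was used. Per the file headers, the deposited table holds raw counts per human Ensembl gene and FPKM. The FPKM that the authors deposited equalled count over exonic length and library total within 0.005. Exonic length was also taken from the table. The submitters' processing notes name the builds GRCm38, mm10 and hg18, but the coordinates match GRCh38: of 58337 genes found in GENCODE release 29, 56764 lay within 5000 bases. The aligner, the counter, its use of strand and the annotation: not given in the sources used here.

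edgeR 4.0.16 (R 4.3.3) was fitted on the deposited counts of the 12865 genes that reached FPKM 1 in 3 or more libraries, TMM-scaled, without a replicate block. The same fit was run on simulated counts in which few genes changed, up and down alike. In these data 69.7% of genes were called, so that run does not test the scaling under such wide change. SE is the log2 fold change over the root of F, and 95% intervals are 1.96 SE. Shares and ratios were compared by exact permutation over libraries (scipy 1.17.1). No library copied another: chi-square per degree of freedom was 2.03 to 4.03 within groups and 75.1 to 84.5 between them.

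All 53 members were named. Library values were given for the 8 largest called rises and falls and 6 fixed genes, and for further members chosen after their values were seen. Of each other list, means or fold changes were given for up to 4 genes by adjusted p, not all reported here. MNAT1, MED13, MED13L and several cell type markers, ALB and AFP among them, were named outside that rule. Members and lists were chosen with earlier results of these data known. Alternatives were other scalings and filters, DESeq2 1.42.0, limma 3.58.1 on log2(FPKM + 1) or log2(FPKM + 0.1), a replicate block and each library left out. Promoters are RefSeq's on GRCh38.p14.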

Additional observations from a re-analysis of the deposited data

How the results depend on the processing

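Of 38 called members, 32 kept direction and call in all 14 alternatives, and CDK4, CDK6, CCNH, CCNK, CCNL1 and CDK17 did not. Transcription members called lower numbered 2, against 4, with library size only and in both limma fits, where the median of all genes lay 0.145, 0.12 and 0.144 higher. The same 3 fits, in that order, turned the sign of CDK4 (0.018, 0.017 and 0.017), CDK6 (0.01 in each), CKS2 (0.105, 0.107 and 0.107), WEE1 (0.118, 0.103 and 0.117), CDK8 (0.117, 0.101 and 0.111), CDK12 (0.076, 0.071 and 0.075) and CDK13 (0.134, 0.091 and 0.131). Of these, CDK4 and CDK6 had been called and the others had not. The uncalled CDK2 and CDK18 turned with no filter (-0.005 and -0.011) and with edgeR's filterByExpr (-0.008 and -0.014). Leaving out 1 library at a time gave log2 fold changes of -0.017 to 0.26 for CCNE2, -0.028 to 0.046 for CDK2, -0.115 to 0.003 for CKS2, -0.082 to 0.05 for CDK8, -0.081 to 0.042 for CDK13 and -0.092 to 0.129 for CDK18. It left 13 to 16 members higher and 21 to 24 lower, and among cell cycle members 5 higher and 14 to 17 lower. TIE1 fell under the filter and was not tested without any 1 sh-circFTO library.

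Same-numbered libraries of the groups did not deviate together (correlations 0.000644, -0.0193 and 0.0744), so the numbers were not used as pairs. A fit with the replicate block made 8999 calls over all genes, against 8969, and 15 members higher and 23 lower. Turnover genes called higher numbered 7 with that block, against 5. DESeq2 made 8481 calls. At this depth CCNA1, CDKN1C, CDK14 and CDK20 were too low to compare, and the wide intervals of CCNE2 and CDKN2D leave changes of their width undetected.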
